A study of Mus musculus with 9 samples.

Results

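The genes described are 10 members of the mouse BCL2 family, which decide whether a cell under stress keeps or opens its mitochondria. They were taken by their symbols from a table of read counts, 10 of 55278 symbols, and all 10 had enough counts to be tested. Their transcripts were compared between 3 populations of dendritic cells sorted from the thymus of C57BL/6 mice 8 weeks of age, named CD301b, SIRPa and XCR1 after the surface proteins, with 3 RNA-seq libraries each. CD301b is a C-type lectin encoded by Mgl2, SIRPa a receptor that marks type 2 conventional dendritic cells, and XCR1 a chemokine receptor that marks type 1 conventional dendritic cells. All 3 groups share the strain and the age, and the labels name no treatment and no altered allele. The design text speaks of 3 mice, but the labels do not tie libraries to mice or say whether mice were pooled, so the spread behind every p-value is that among libraries and may be technical. The sorting gates are not stated. The source name on the labels reads thymocytes and their cell type reads thymic dendritic cells.

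Proteins of this family act at the outer membrane of mitochondria. Pro-survival members such as BCL2, BCL-XL, MCL1 and A1 hold the pore-forming effectors BAX and BAK in check, and the BH3-only members, sensors that respond to withdrawn growth factors, damaged DNA or death receptor signals, release or activate the effectors. Once BAX or BAK opens the membrane, cytochrome c leaves and caspases are switched on. In the thymus the same family also sets the fate of developing T cells, in which BIM, the product of Bcl2l11, is needed for the deletion of self-reactive clones. In dendritic cells, BCL2 and BIM are known to act on lifespan.

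The labels were checked against the transcripts of the 3 sorting proteins. Xcr1 stood at 0.619, 9.61 and 766 CPM in CD301b, SIRPa and XCR1 libraries, Mgl2 at 624, 23.2 and 1.82 CPM, and Sirpa at 646, 774 and 12.5 CPM, each a mean of 3 libraries. CPM here are read counts relative to library size, with library sizes scaled by the trimmed mean of M-values (TMM), and the libraries held 20246092 to 25438864 counts. Markers of other cells were also present. The summed level of 10 macrophage markers was 1877 to 2220 CPM in CD301b, 2656 to 3081 in SIRPa and 188 to 206 in XCR1 libraries, with none of the 10 at 0 in all libraries of a population, and all 10 were called higher in CD301b and in SIRPa than in XCR1. Summed over 16 markers of thymocytes and T cells, the level was 255 to 598 CPM in CD301b, 358 to 653 in SIRPa and 180 to 801 in XCR1 libraries. Of the thymocyte and T cell markers, 15 were tested and Ptcra was at 0 in CD301b. With all libraries, 0 of the 15 were called in any comparison at an adjusted p under 0.05 with edgeR's quasi-likelihood test, 0 had an unadjusted p under 0.05, DESeq2 called 0, and limma-voom called 1, Tcf7, in CD301b against SIRPa and in SIRPa against XCR1. Without XCR1 replicate 3, edgeR called 5 of them in CD301b against XCR1 and 5 in SIRPa against XCR1, all of them lower in XCR1. The summed level of 10 B cell markers was 76.1 to 101 CPM in CD301b, 101 to 141 in SIRPa and 10.2 to 22.1 in XCR1 libraries, with Ms4a1, Pax5 and Blk at 0 in CD301b and Cd79a at 0 in XCR1. Single B cell markers went both ways: of 9 tested, edgeR called 2 higher and 2 lower in CD301b than in XCR1. In SIRPa against XCR1, it called 5 of the 9 higher and 0 lower. Markers of mature dendritic cells, 12 in number, summed to 2703 to 2947 CPM in CD301b, 3359 to 3502 in SIRPa and 2721 to 3401 in XCR1 libraries. Of these 12, edgeR called 0 higher and 5 lower in CD301b than in SIRPa. It called 4 higher and 5 lower in CD301b than in XCR1, and 5 higher and 1 lower in SIRPa than in XCR1. The sums of 4 other lists were lowest in XCR1. Summed levels in CD301b, SIRPa and XCR1 libraries were 496 to 628, 353 to 385 and 120.4 to 151 CPM for 8 markers of plasmacytoid dendritic cells, none at 0 throughout a population. For 10 markers of monocytes and granulocytes they were 542 to 635, 484 to 538 and 27.4 to 83.8 CPM, with Ly6g, Retnlg and Elane at 0 in CD301b, Elane at 0 in SIRPa and Ly6g at 0 in XCR1. For 8 markers of NK and innate lymphoid cells they were 149 to 175, 139 to 164 and 15.9 to 28.2 CPM, with Ncr1 at 0 in CD301b and XCR1. For 10 markers of thymic epithelium and stroma they were 201 to 240.5, 81.9 to 96.7 and 42.9 to 62.5 CPM, with Col3a1 at 0 in CD301b and Col1a1, Col3a1 and Pdgfra at 0 in SIRPa. Epcam is among these 10 and was also listed as a marker of type 2 conventional dendritic cells, so this sum is not of stroma alone. Of the tested markers in these 4 lists, 4 of 8, 3 of 7, 4 of 7 and 4 of 7 were called higher in CD301b than in XCR1, and 3 of 8, 3 of 7, 3 of 7 and 2 of 7 higher in SIRPa than in XCR1, by edgeR. The part of any of these cells in the results below was not tested. In sorted bulk samples, fewer cells of a type and less RNA per cell cannot be told apart.

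Among the 10 members, 3 separated XCR1 from both of the other populations: Bcl2 and Bcl2l11 were higher in CD301b and SIRPa than in XCR1, by 1.87 to 2.605-fold, and Bid was lower, with XCR1 at 2.91 times the level in CD301b and 2.83 times that in SIRPa. The other 7 members were called in neither comparison with XCR1, except Bcl2a1b, which was called higher in SIRPa than in XCR1. Both comparisons use the same XCR1 libraries. None of the 10 was called between CD301b and SIRPa. A call is an adjusted p under 0.05 in edgeR's quasi-likelihood test, with Benjamini-Hochberg adjustment over the 15417 genes tested.

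Against this stands the background over all genes. Between CD301b and XCR1, 3 of 10 members were called, and 22.6% of all tested genes were. Between SIRPa and XCR1, 4 of 10 were called, beside 24.7% of all genes. Between CD301b and SIRPa, 0 of 10 members were called by edgeR, DESeq2 or limma-voom, beside 4.28% of all genes by edgeR, and 2 members, Bcl2l1 and Bcl2a1b, had an unadjusted p under 0.05. A test of any difference between the 3 populations called 3 of 10 members, Bcl2, Bcl2l11 and Bid, beside 25.8% of all genes. No excess over that background is read from counts among 10 genes, and what follows describes the single members.

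**Figure D1:**
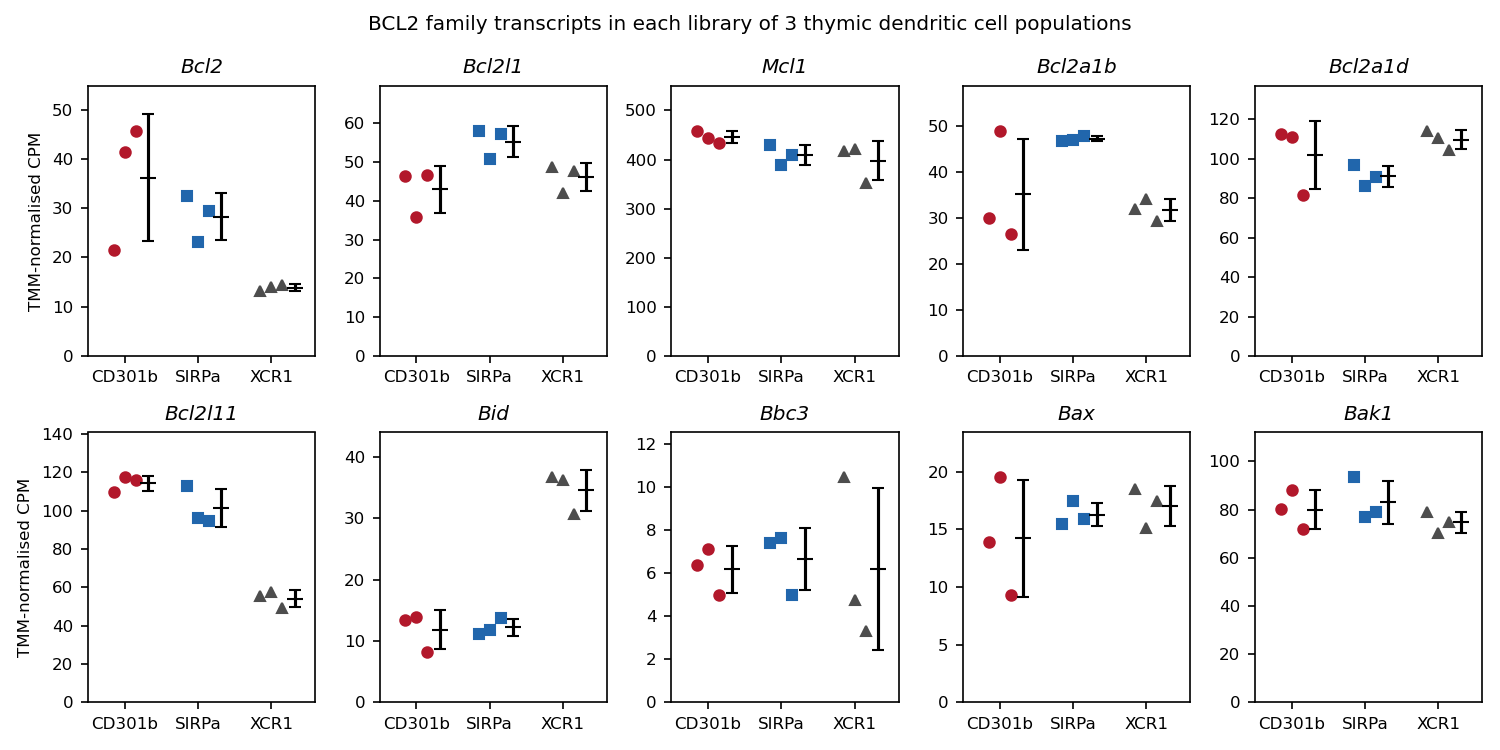
Level of each member in TMM-normalised CPM (vertical axis, linear, from 0) in CD301b, SIRPa and XCR1 libraries (horizontal axis). Each symbol is 1 library, and the black bar with caps is the mean ± SD of 3 libraries; the XCR1 libraries stand below all others in Bcl2 and Bcl2l11 and above all others in Bid.

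Among the pro-survival members, Bcl2 itself differed most. Bcl2 (ENSMUSG00000057329.7, GRCm38 chromosome 1, 106538178 to 106714274, minus strand) encodes the founding member of the family. Its level was 21.4, 41.4 and 45.7 CPM in CD301b replicates 1, 3 and 4, 32.5, 23.1 and 29.3 CPM in SIRPa replicates 1 to 3, and 13.2, 14.0 and 14.4 CPM in XCR1 replicates 1 to 3. All 6 CD301b and SIRPa libraries lay above all 3 XCR1 libraries, and the XCR1 libraries lay close together. CD301b replicate 1 lay below every SIRPa library, while the other CD301b libraries lay above them.

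The log2 fold change of Bcl2 was 1.38 ± 0.25 (SE; 95% interval 0.89 to 1.87) in CD301b against XCR1. Its adjusted p was 0.000258 in edgeR's quasi-likelihood test. Here and below, the 95% intervals are approximate and somewhat narrow for 3 libraries per population. In SIRPa against XCR1 the log2 fold change was 1.03 ± 0.25 (interval 0.54 to 1.51), with an adjusted p of 0.00357. Between CD301b and SIRPa it was 0.35 ± 0.24 with an adjusted p of 0.607, and the interval of -0.12 to 0.83 includes 0. Both calls against XCR1 were also made under all 16 other settings tried.

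The thymocyte and T cell markers are set beside Bcl2 library by library. In CD301b replicates 1, 3 and 4 they summed to 255, 468 and 598 CPM, in the same order as the Bcl2 levels of 21.4, 41.4 and 45.7 CPM. In SIRPa replicates 1 to 3 the sum was 485, 358 and 653 CPM, beside Bcl2 at 32.5, 23.1 and 29.3 CPM. In XCR1 replicates 1 to 3 the sum was 220, 180 and 801 CPM, beside Bcl2 at 13.2, 14.0 and 14.4 CPM. The part of such cells in the level of Bcl2 was not tested.

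Mcl1 had by far the most counts of the 10. Mcl1 (ENSMUSG00000038612.16, chromosome 3, 95658788 to 95663176, plus strand) encodes a short-lived pro-survival protein on which many blood cells depend. It stood at 458, 444 and 434 CPM in CD301b, 429, 389 and 409 CPM in SIRPa, and 418, 422 and 352 CPM in XCR1 libraries. The CD301b libraries lay above all others, by little. Its log2 fold change was 0.12 ± 0.10 (95% interval -0.07 to 0.31) in CD301b against SIRPa, 0.16 ± 0.10 (-0.03 to 0.35) in CD301b against XCR1 and 0.04 ± 0.10 (-0.15 to 0.23) in SIRPa against XCR1. None passed the test, and no interval reached past 0.35.

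Bcl2l1 encodes BCL-XL and, by alternative splicing, a shorter form that promotes death, and gene counts do not separate the forms. Bcl2l1 (ENSMUSG00000007659.18, chromosome 2, 152780668 to 152831728, minus strand) stood at 46.3, 35.8 and 46.6 CPM in CD301b, 58.0, 50.7 and 57.1 CPM in SIRPa and 48.6, 42.0 and 47.7 CPM in XCR1 libraries. The 3 SIRPa libraries lay above all others. The log2 fold change was -0.36 ± 0.16 in CD301b against SIRPa, with an unadjusted p of 0.0299 and an adjusted p of 0.269 in edgeR's test over all genes. It was -0.10 ± 0.16 in CD301b against XCR1 and 0.26 ± 0.16 in SIRPa against XCR1, with adjusted p-values of 0.727 and 0.268 in the same fit.

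The mouse has several near-identical A1 genes, the Bcl2a1 copies, which encode a pro-survival protein known as a target of NF-kappaB. Bcl2a1b (ENSMUSG00000089929.1, chromosome 9, 89199209 to 89207827, plus strand) and Bcl2a1d (ENSMUSG00000099974.1, chromosome 9, 88723285 to 88731914, minus strand) are members here, and Bcl2a1a (ENSMUSG00000102037.1, chromosome 9, 88956900 to 88962419, plus strand) lies between them. The first 120 coding bases of the 3 copies are shown because they bear on how far reads can be assigned to one copy. They come from GENCODE M21 on GRCm38, at chr9:88957051-88957170 (plus strand), chr9:89199360-89199479 (plus) and chr9:88731600-88731719 (minus), written 5′ to 3′ in the sense of the gene. Capitals mark the 7 positions at which the copies are not all alike:
Bcl2a1a: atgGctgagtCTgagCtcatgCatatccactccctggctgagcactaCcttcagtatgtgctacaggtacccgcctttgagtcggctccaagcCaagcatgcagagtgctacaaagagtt
Bcl2a1b: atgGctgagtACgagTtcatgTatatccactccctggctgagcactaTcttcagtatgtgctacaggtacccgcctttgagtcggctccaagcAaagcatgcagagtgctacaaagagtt
Bcl2a1d: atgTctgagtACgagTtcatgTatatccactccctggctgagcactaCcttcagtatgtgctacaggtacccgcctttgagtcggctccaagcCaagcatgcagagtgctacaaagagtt
Over the whole coding sequence of 519 bases, 12 positions were not alike in all 3, and the longest run without a difference was 217 bases, at coding positions 95 to 311. Bcl2a1b and Bcl2a1d differed at 6 positions (98.8% identity), Bcl2a1a and Bcl2a1d at 7, and Bcl2a1a and Bcl2a1b at 11. Of all 50-base windows of the transcripts, 79.2% in Bcl2a1b, 79.5% in Bcl2a1d and 69.0% in Bcl2a1a also occurred in the transcript of another gene. Exons of Bcl2a1b also share 401 of 817 bases with exons of the protein-coding gene Gm29094 on the same strand. Gm29094 is not among the copies summed below. How the authors' counting treated reads that match several copies or overlapping genes is not stated, so the level of a single copy is uncertain.

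With that limit, Bcl2a1b stood at 30.0, 49.0 and 26.5 CPM in CD301b replicates 1, 3 and 4, 46.9, 47.1 and 48.0 CPM in SIRPa and 31.9, 34.2 and 29.3 CPM in XCR1 libraries. The SIRPa libraries were nearly level with each other and above all XCR1 libraries, and of the CD301b libraries replicate 3 lay at the SIRPa level and the other 2 at or below the XCR1 level. The log2 fold change in SIRPa against XCR1 was 0.57 ± 0.20, with an adjusted p of 0.0414 in edgeR's test. That call was lost when any 1 SIRPa or XCR1 library was left out, 6 of 9 such fits, with adjusted p-values of 0.0591 to 0.114. In CD301b against SIRPa the log2 fold change was -0.43 ± 0.20 with an adjusted p of 0.329 in the same fit; without CD301b replicate 3 it was -0.74 with an adjusted p of 0.0342.

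Bcl2a1d stood at 112, 111 and 81.8 CPM in CD301b, 96.7, 86.3 and 90.6 CPM in SIRPa and 114, 111 and 105 CPM in XCR1 libraries. Here the SIRPa libraries lay below all XCR1 libraries, the opposite side to Bcl2a1b, and the log2 fold change of -0.27 ± 0.13 did not pass the test (adjusted p = 0.157, edgeR). Bcl2a1b held 15.5, 24.1 and 17.1% of the counts of all Bcl2a1 copies in CD301b replicates 1, 3 and 4, 24.4, 25.1 and 25.5% in SIRPa and 16.5, 17.1 and 16.5% in XCR1 libraries. The copies summed stood at 184 ± 25.7, 189 ± 2.63 and 190 ± 11.5 CPM in CD301b, SIRPa and XCR1 (SD, n = 3 each). As 1 row, the summed copies had log2 fold changes of -0.04 ± 0.11 in CD301b against SIRPa, -0.05 ± 0.11 in CD301b against XCR1 and -0.01 ± 0.11 in SIRPa against XCR1, with adjusted p-values of 0.955, 0.839 and 0.979 in edgeR's test. The call of Bcl2a1b between SIRPa and XCR1 thus has no counterpart in the sum of the copies.

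The BH3-only members carried the clearest contrast. Bcl2l11 (ENSMUSG00000027381.16, chromosome 2, 128126038 to 128162547, plus strand) encodes BIM, which binds all pro-survival members and can activate BAX and BAK. Its level was 110, 117 and 116 CPM in CD301b replicates 1, 3 and 4, 113, 96.3 and 94.9 CPM in SIRPa replicates 1 to 3 and 55.4, 57.8 and 49.3 CPM in XCR1 replicates 1 to 3. The XCR1 libraries lay below all 6 others by a wide gap, and CD301b and SIRPa libraries overlapped. The log2 fold change was 1.08 ± 0.12 (95% interval 0.83 to 1.32) in CD301b against XCR1 and 0.90 ± 0.12 (0.66 to 1.15) in SIRPa against XCR1, with adjusted p-values of 1.11e-06 and 1.05e-05 in edgeR's quasi-likelihood test. In CD301b against SIRPa it was 0.17 ± 0.12 (-0.07 to 0.41), with an adjusted p of 0.627. Both calls held under all 16 other settings. Macrophage markers moved the same way, at 1877 to 2220 CPM in CD301b, 2656 to 3081 in SIRPa and 188 to 206 in XCR1 libraries, as did the summed markers of plasmacytoid dendritic cells, monocytes and granulocytes, NK and innate lymphoid cells, and stroma given above. Markers of type 2 conventional dendritic cells, 12 in number, also moved this way. They summed to 3099 to 3467 CPM in CD301b, 2298 to 2528 in SIRPa and 94.98 to 121 in XCR1 libraries. Markers of type 1 conventional dendritic cells, also 12, moved the other way. Their sums were 2081 to 2506, 1957 to 2280 and 11171 to 13185 CPM in the same order. The part of any of these cells in the levels of Bcl2l11 and Bcl2 was not tested.

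FOXO transcription factors are known to induce BIM when growth factors are withdrawn, and they are in the list of regulators given further on. A FOXO-type motif, GTNAACA or its reverse complement TGTTNAC, was therefore looked up in RefSeq promoter windows (GRCm38.p6, 250 bases before to 50 after a transcript start). The motif was chosen after the expression values were known. All 10 members had such a window, 15 windows in all, and the motif occurred in 2 of the 10, Bcl2l11 and Bbc3. Over all genes it occurred in 10.4% of 32851 windows, and 11.7% of 27025 genes had it in at least 1 window. Both Bcl2l11 windows held it. The 100 bases around each are shown with the motif in capitals, the first from chr2:128125788-128125887 and the second from chr2:128127361-128127460, plus strand, neither overlapping an annotated exon of Bcl2l11:
Bcl2l11 start site 1: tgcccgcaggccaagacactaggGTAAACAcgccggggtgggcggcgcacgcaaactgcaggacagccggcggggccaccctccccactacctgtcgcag
Bcl2l11 start site 2: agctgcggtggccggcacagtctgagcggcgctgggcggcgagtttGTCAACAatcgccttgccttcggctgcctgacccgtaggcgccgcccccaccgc
The first begins 227 bases before its transcript start and the second 168 bases before. These are letter matches and no evidence that a factor binds there. The NF-kappaB consensus, searched on both strands in the same windows, occurred in 8.46% of all windows, and 9.55% of all genes had it. Of the 10 members, 2 had it, Bcl2l1 and Bbc3. No match was found in the windows of the Bcl2a1 copies, and sequence outside these windows was not searched.

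Bid ran the other way. Bid (ENSMUSG00000004446.12, chromosome 6, 120891930 to 120916853, minus strand) encodes the BH3-only protein that caspase-8 cuts, so that it links death receptors to mitochondria. Its level was 13.4, 13.9 and 8.22 CPM in CD301b, 11.1, 11.7 and 13.8 CPM in SIRPa and 36.6, 36.2 and 30.7 CPM in XCR1 libraries. Every XCR1 library was above every other library, with a gap between 13.9 and 30.7 CPM. The log2 fold change was -1.54 ± 0.24 (95% interval -2.02 to -1.06) in CD301b against XCR1 and -1.499 ± 0.24 (-1.98 to -1.02) in SIRPa against XCR1, with adjusted p-values of 5.98e-05 and 7.60e-05 in edgeR's quasi-likelihood test. Between CD301b and SIRPa it was -0.04 ± 0.24 (-0.51 to 0.43) with an adjusted p of 0.982. Both calls against XCR1 held under all 16 other settings.

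Exons of Bid share 628 of 3550 bases with exons of Bcl2l13 on the opposite strand, and the strand setting of the counting is not given. Bcl2l13 stood at 41.5, 41.2 and 40.3 CPM in CD301b, SIRPa and XCR1 and was not called in any comparison. Exons of Bcl2 likewise share 558 of 9157 bases with the antisense gene D630008O14Rik. Bak1 overlaps exons of Ggnbp1 on the opposite strand, and Bax shares 192 of 1576 exonic bases with the gene model Gm45808 on its own strand.

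Bbc3 (ENSMUSG00000002083.13, chromosome 7, 16308393 to 16318205, plus strand) encodes PUMA, a BH3-only protein induced by p53. It stood at 6.37, 7.13 and 4.99 CPM in CD301b, 7.38, 7.60 and 4.996 CPM in SIRPa and 10.4, 4.75 and 3.33 CPM in XCR1 libraries. The XCR1 libraries spread wider than the other 2 populations together. Its log2 fold changes were -0.11 ± 0.44, 0.00 ± 0.44 and 0.11 ± 0.45 in CD301b against SIRPa, CD301b against XCR1 and SIRPa against XCR1, and the interval for CD301b against XCR1 ran from -0.86 to 0.86. A difference in Bbc3 within those bounds was not detectable with this spread among libraries.

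The pore-forming effectors were not called. Bak1 (ENSMUSG00000057789.14, chromosome 17, 27019810 to 27029009, minus strand) stood at 80.2, 88.0 and 71.8 CPM in CD301b, 93.3, 76.8 and 79.1 CPM in SIRPa and 79.1, 70.3 and 74.8 CPM in XCR1 libraries. Bax (ENSMUSG00000003873.11, chromosome 7, 45461697 to 45466898, minus strand) stood at 13.9, 19.5 and 9.35 CPM in CD301b, 15.5, 17.4 and 15.9 CPM in SIRPa and 18.5, 15.1 and 17.5 CPM in XCR1 libraries. All populations overlapped for both genes. The 95% intervals of the log2 fold change of Bak1 reached at most 0.41 in size, and those of Bax reached -0.72 in CD301b against SIRPa and -0.79 in CD301b against XCR1, beside 9.35 to 19.5 CPM among the CD301b libraries.

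**Figure D2:**
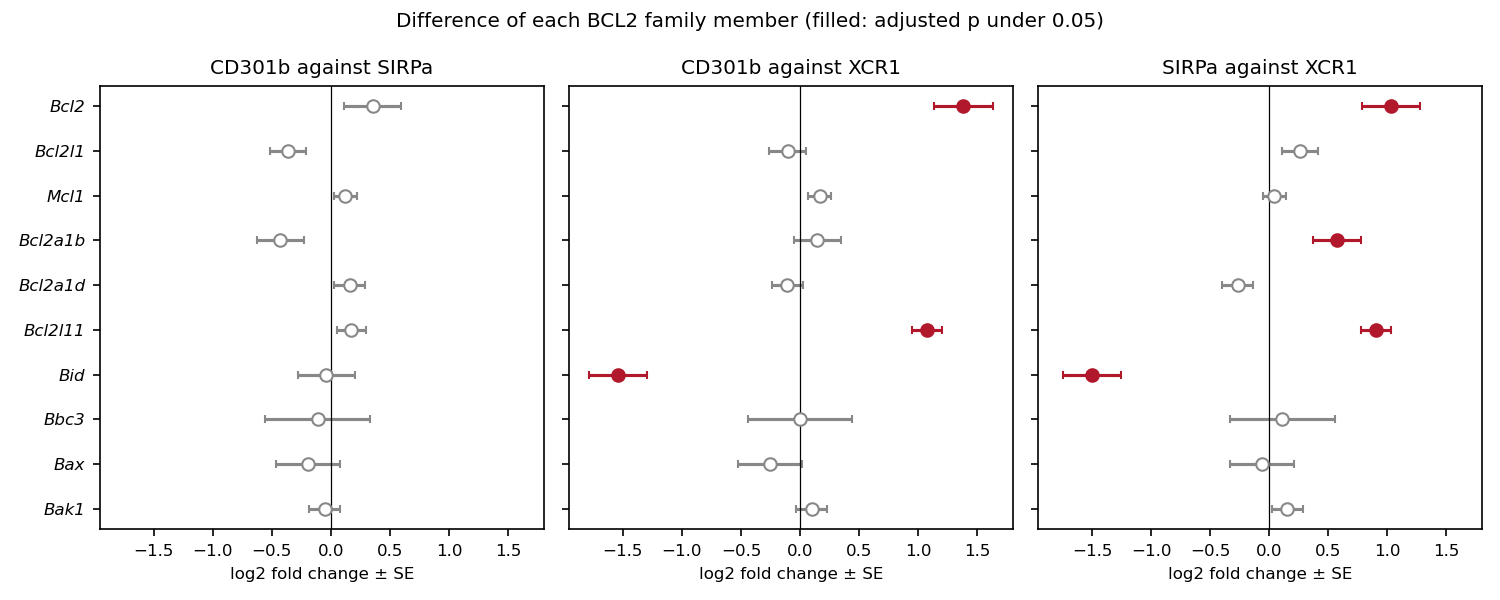
Log2 fold change ± SE of the 10 members (rows) in CD301b against SIRPa, CD301b against XCR1 and SIRPa against XCR1 (panels), first population over the second. Filled red points have an adjusted p under 0.05 in edgeR's quasi-likelihood test; Bcl2 and Bcl2l11 lie to the right and Bid to the left in both comparisons with XCR1, and no point is filled between CD301b and SIRPa.

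The members were also sorted by whether libraries of a pair of populations overlapped, without regard to a test. No overlap between CD301b and SIRPa was seen for 2 of 10 members (Bcl2l1 and Mcl1), beside 22.1% of all genes. Between CD301b and XCR1, 4 of 10 had none (Bcl2, Mcl1, Bcl2l11 and Bid), beside 34.4% of all genes. Between SIRPa and XCR1, 6 of 10 had none (Bcl2, Bcl2l1, Bcl2a1b, Bcl2a1d, Bcl2l11 and Bid), beside 40.2% of all genes.

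Levels of different genes were compared per kilobase of merged annotated exons. Mcl1 and Bcl2a1d led in every population, Mcl1 at 130 ± 3.59, 120 ± 5.87 and 116 ± 11.6 CPM per kb in CD301b, SIRPa and XCR1 (SD, n = 3 each) and Bcl2a1d at 118 ± 19.99, 106 ± 6.09 and 127 ± 5.58 CPM per kb. The order of these 2 genes was not separated by their spread in CD301b and XCR1. The levels of Bcl2a1d and Bcl2a1b, and so their ranks, also depend on how reads shared between copies were counted, which is not stated. Bcl2a1b and then Bak1 followed in all 3 populations, at 38.9 to 57.9 and 31.0 to 34.5 CPM per kb, and overlapped in CD301b only.

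The lower ranks differed between populations. Bcl2l11 held rank 5 of 10 in CD301b, at 14.2 ± 0.516 CPM per kb, and in SIRPa, at 12.6 ± 1.25, and rank 8 in XCR1, at 6.75 ± 0.545. Bid was at 3.34 ± 0.886 and 3.44 ± 0.389 CPM per kb in CD301b and SIRPa, level with Bbc3 within the spread, and at 9.72 ± 0.927 in XCR1, level with Bax at 10.8 and Bcl2l1 at 10.1. Bcl2, in spite of its name, was among the lowest per length, at 3.95 ± 1.41, 3.09 ± 0.520 and 1.51 ± 0.0696 CPM per kb in CD301b, SIRPa and XCR1, and it overlapped with Bid or Bbc3 in every population. Merged exons count every annotated transcript form, so the order per length is approximate.

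**Figure D3:**
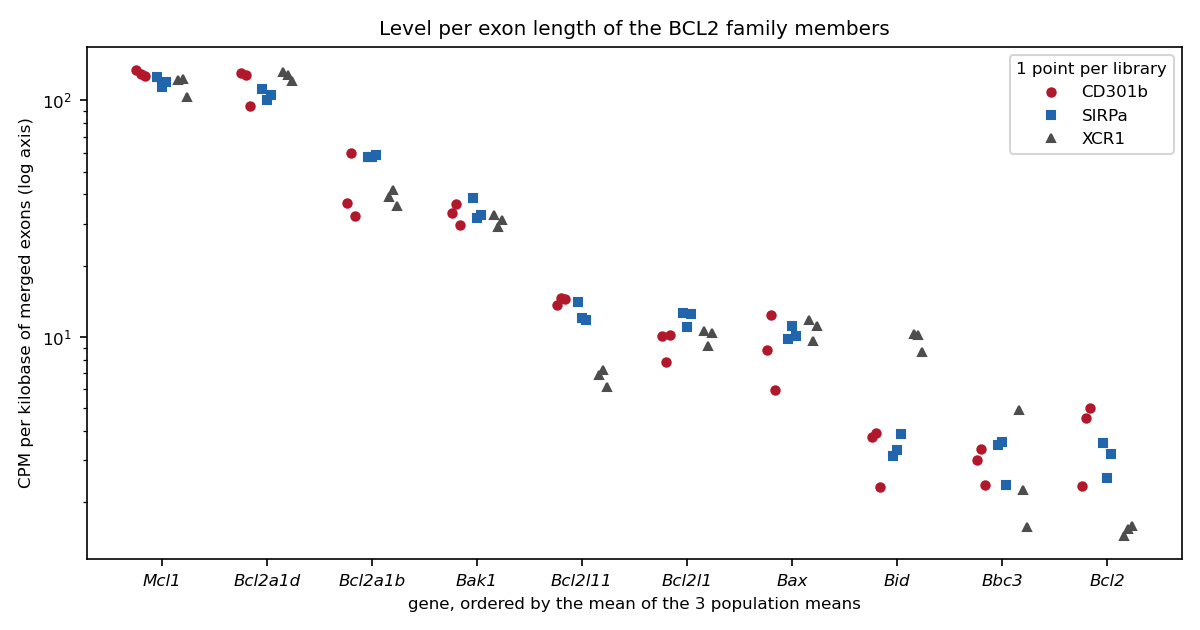
Level of each member in CPM per kilobase of merged exons (vertical log axis), 1 point per library, with genes ordered by the mean of the 3 population means (horizontal axis). Mcl1 and Bcl2a1d stand near 100 in all libraries, and Bid stands above Bcl2l11 in the XCR1 libraries and below it in all CD301b and SIRPa libraries.

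Per length, Bcl2l11 was above Bid in each CD301b and SIRPa library and below it in each XCR1 library. The order in XCR1 rests on the division by exon length, 8029 bases for Bcl2l11 and 3550 for Bid: in CPM, Bcl2l11 was above Bid in every library, XCR1 included. The ratio of Bcl2l11 to Bid per length was 3.62 to 6.23 in CD301b, 3.05 to 4.49 in SIRPa and 0.669 to 0.710 in XCR1 libraries. Bcl2l11 made up 69.7 ± 5.06, 65.7 ± 2.25 and 35.1 ± 3.44% of the summed level per length of the 3 BH3-only members in CD301b, SIRPa and XCR1, and Bid 16.2 ± 3.51, 18.0 ± 3.20 and 50.5 ± 3.38% (SD, n = 3 each).

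Summed by role, the members were close between populations. The 3 BH3-only members together stood at 20.5 ± 1.40, 19.2 ± 1.34 and 19.4 ± 2.89 CPM per kb in CD301b, SIRPa and XCR1. The 5 pro-survival members together stood at 304 ± 31.6, 298 ± 13.1 and 294 ± 19.0 CPM per kb, of which Bcl2 was 1.32, 1.03 and 0.518%. That sum includes Bcl2a1b and Bcl2a1d, whose levels are uncertain for the reason given above. The 2 effectors together stood at 42.3 ± 6.57, 44.8 ± 3.23 and 41.8 ± 2.92 CPM per kb. Those sums hold the 10 members alone. Over all 6 tested BH3-only genes, with Bad, Bmf and Pmaip1 from the lists further on, the sum was 98.3 ± 12.8 and 88.5 ± 2.81 CPM per kb in CD301b and SIRPa and lower in XCR1, at 65.2 ± 6.08, without overlap of XCR1 with either. Of that sum Pmaip1 alone made up 64.9, 55.3 and 37.4 CPM per kb in CD301b, SIRPa and XCR1. These sums are of transcripts and were not tested, and protein levels were not measured.

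For each member called in the test of all 3 populations, the genes with the most similar pattern were sought among 9847 genes with a mean of at least 5 CPM, by Pearson r of log2 CPM over the 9 libraries. Those libraries form 3 populations from the same depth range, and r counts differences between populations as well as the spread within them. Bcl2 was most like Hpcal1 (r = 0.950), Washc5 (0.947) and Crtc3 (0.946). Bcl2l11 was most like Fam217b (0.991), Naa60 (0.990) and Slc15a3 (0.988). Bid was most like Nono (0.990), Psme1 (0.990), which encodes a subunit of a proteasome activator, and Apobr (0.987). Slc15a3, for example, stood at 110, 82.5 and 9.88 CPM in CD301b, SIRPa and XCR1, and Psme1 at 477, 500 and 950 CPM.

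The pathway around the members was read from lists of 66 further genes, of which 60 were tested. In CD301b against SIRPa, 2 were higher and 5 lower in CD301b, where over all genes 2.2% were higher and 2.08% lower. Between CD301b and XCR1, 13 were higher and 9 lower in CD301b, with 13.5% of all genes higher and 9.12% lower. Between SIRPa and XCR1, 19 were higher and 11 lower in SIRPa, with 13.9% of all genes higher and 10.7% lower. The median log2 fold change over the 60 was 0.04, 0.07 and 0.02 in these 3 comparisons, beside 0.01, 0.05 and 0.06 over all genes.

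The list of other BH3-only genes added 2 genes on the side of Bcl2l11. Of 5 listed, 3 were tested, and 2 of them, Bmf and Pmaip1, were called higher in both comparisons with XCR1 by edgeR. Over all tested genes, 13.5% were called higher in CD301b and 13.9% higher in SIRPa than in XCR1. For CD301b against SIRPa, 0 of the 3 were called by edgeR, DESeq2 or limma-voom, and 1, Bmf, had an unadjusted p under 0.05. Bmf, a BH3-only protein held at the cytoskeleton, stood at 33.9, 41.2 and 29.2 CPM in CD301b, 42.5, 50.8 and 43.1 in SIRPa and 21.1, 19.4 and 21.2 in XCR1 libraries. Its log2 fold change was 0.76 ± 0.18 in CD301b against XCR1 and 1.14 ± 0.18 in SIRPa against XCR1, with adjusted p-values of 0.00395 and 6.38e-05 in edgeR's test. Pmaip1, which encodes NOXA, an antagonist of MCL1, stood at 177 ± 32.5, 151 ± 5.08 and 102 ± 7.95 CPM in CD301b, SIRPa and XCR1, with log2 fold changes of 0.80 ± 0.13 and 0.56 ± 0.13 against XCR1. The third tested gene, Bad, was at 10.1 to 19.9 CPM in all libraries and was not called. Bik and Hrk had 0 counts in every library, where 3 counts correspond to 0.119 to 0.150 CPM, a floor that covers counting error only.

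The atypical relatives held the largest difference in size among the 60 genes. Bcl2l14, also called BCL-G, was at 20.1 ± 1.91, 21.6 ± 1.41 and 80.5 ± 18.7 CPM in CD301b, SIRPa and XCR1, and its log2 fold changes of -2.00 ± 0.18 and -1.89 ± 0.18 against XCR1 had adjusted p-values of 4.03e-08 and 8.43e-08 in edgeR's test. Bnip3l, a mitophagy receptor, ran the other way, at 94.2 ± 16.5, 86.3 ± 7.49 and 51.0 ± 6.74 CPM. The other 4 tested relatives were not called by edgeR in any comparison with all libraries, among them Becn1, which acts in autophagy, at 83.4, 85.3 and 77.3 CPM. One of the 4, Bnip3, was called in SIRPa against XCR1 by DESeq2 and by edgeR without XCR1 replicate 3, beside an adjusted p of 0.0817 with all libraries in edgeR. In CD301b against SIRPa, 0 of the 6 tested relatives were called by edgeR, DESeq2 or limma-voom, and 0 had an unadjusted p under 0.05. Of the other pro-survival relatives, 2 of 4 were tested, Bcl2a1a at 47.2, 50.9 and 48.8 CPM and Bcl2l2, which encodes BCL-W, at 3.74 to 8.58 CPM in all libraries, and neither was called in any comparison by edgeR, DESeq2 or limma-voom or had an unadjusted p under 0.05 in edgeR's test. Bok, the third pore-forming relative, had 13, 0 and 0 counts in CD301b, 4, 0 and 0 in SIRPa and 0, 0 and 1 in XCR1 libraries and was not tested.

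Among genes for mitochondrial channels and steps after mitochondria open, 4 of 8 were called lower in CD301b and SIRPa than in XCR1 by edgeR. Over all tested genes, 9.12% were called lower in CD301b and 10.7% lower in SIRPa than in XCR1. With CD301b set against SIRPa, 0 of the 8 were called by edgeR, DESeq2 or limma-voom, and 1, Cycs, had an unadjusted p under 0.05. The 4 were Cycs, which encodes cytochrome c, at 84.2 ± 8.47, 66.1 ± 8.76 and 116 ± 8.46 CPM in CD301b, SIRPa and XCR1, its partner Apaf1 at 86.1 ± 3.82, 80.5 ± 8.19 and 113 ± 8.51, the initiator caspase gene Casp9 at 26.1 ± 1.78, 27.4 ± 5.05 and 47.7 ± 14.4, and the channel gene Vdac2 at 131 ± 3.31, 143 ± 8.47 and 193 ± 24.8. Log2 fold changes lay between -0.87 and -0.39 in CD301b against XCR1 and between -0.81 and -0.44 in SIRPa against XCR1. Of these calls, that of Vdac2 in CD301b against XCR1 and those of Cycs and Apaf1 in SIRPa against XCR1 were kept whichever library was left out. In CD301b against XCR1, the call of Cycs was lost without CD301b replicate 3 or XCR1 replicate 1 (adjusted p up to 0.0719, edgeR), that of Apaf1 without CD301b replicate 1 or 3 or XCR1 replicate 1 or 3 (up to 0.0820) and that of Casp9 without XCR1 replicate 1 (0.0531). In SIRPa against XCR1, the call of Casp9 was lost without SIRPa replicate 3 or XCR1 replicate 1 (up to 0.0867) and that of Vdac2 without XCR1 replicate 2 (0.0536).

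Executioner caspases and inhibitors of apoptosis held 3 of the 7 calls between CD301b and SIRPa. This list had 8 tested genes, and over all tested genes 4.28% were called in that comparison. Casp6, an executioner caspase, was at 84.7, 101 and 90.1 CPM in CD301b, 27.5, 23.8 and 26.5 in SIRPa and 42.4, 42.4 and 39.7 in XCR1 libraries. All 3 populations were apart from each other. Its log2 fold change was 1.82 ± 0.15 in CD301b against SIRPa, 1.15 ± 0.14 in CD301b against XCR1 and -0.68 ± 0.15 in SIRPa against XCR1, with adjusted p-values of 2.22e-07, 3.28e-06 and 0.00135 in edgeR's test. Birc2, which encodes the ubiquitin ligase cIAP1, was highest in SIRPa. It stood at 111 ± 1.39, 201 ± 13.1 and 130 ± 18.6 CPM in CD301b, SIRPa and XCR1 and was called in CD301b against SIRPa and in SIRPa against XCR1. The inhibitor gene Birc5, also a gene of dividing cells, was lower in SIRPa than in XCR1, at 24.3 ± 5.72 and 46.05 ± 7.92 CPM.

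In the death receptor branch, 11 genes were tested. Between CD301b and SIRPa 2 were lower in CD301b, between CD301b and XCR1 3 were higher in CD301b, and between SIRPa and XCR1 5 were higher and 1 lower in SIRPa. Over all tested genes, 2.08% were lower in CD301b than in SIRPa and 13.5% higher in CD301b than in XCR1. In SIRPa against XCR1, 13.9% of all genes were higher and 10.7% lower. Tnfrsf1b, which encodes TNF receptor 2, differed in all 3 comparisons, at 223 ± 23.2, 357 ± 40.2 and 121 ± 4.88 CPM in CD301b, SIRPa and XCR1. Casp8, whose product cuts BID, was at 107 ± 1.14, 93.0 ± 6.00 and 60.6 ± 6.82 CPM, with log2 fold changes of 0.82 ± 0.12 and 0.62 ± 0.12 against XCR1 and adjusted p-values of 3.73e-05 and 0.000771 in edgeR's test. It was thus on the opposite side to Bid in both comparisons. Tnfaip3, an inhibitor of NF-kappaB signalling, was at 325 ± 23.8, 366 ± 28.1 and 230 ± 2.45 CPM. Fas was at 9.92 ± 2.95, 22.5 ± 1.98 and 8.94 ± 2.602 CPM, and its call in CD301b against SIRPa, with an adjusted p of 0.0241, was lost without CD301b replicate 3 or 4 or any SIRPa library, at adjusted p-values up to 0.113.

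Among 16 regulators of the family's expression or turnover, 0 were called between CD301b and SIRPa by edgeR with all libraries, and 6 had an unadjusted p under 0.05. DESeq2 called 1 of the 16, Dynll2, and limma-voom called 0. With edgeR, Dynll1 was called without the filter, and Dynll1, Dynll2 and Stat5a were called without CD301b replicate 4. Huwe1, a ubiquitin ligase of MCL1, had the highest mean of the list, at 496 ± 17.0 and 539 ± 13.1 CPM in CD301b and SIRPa. Between CD301b and XCR1, 6 were higher and 3 lower in CD301b, beside 13.5 and 9.12% of all genes. Between SIRPa and XCR1, 6 were higher and 2 lower in SIRPa, beside 13.9 and 10.7% of all genes. The 6 higher genes were Foxo1, Foxo3, Nfkb1, Rel, Stat5a and Stat5b in each of these comparisons, which share the XCR1 libraries. In CD301b against XCR1, the lower call of Trp53, which encodes p53, was lost without any 1 CD301b or XCR1 library (adjusted p up to 0.135, edgeR). That of Huwe1 was lost without CD301b replicate 1 or 3 or XCR1 replicate 1 (up to 0.115). The call of Stat5a in SIRPa against XCR1 was lost without SIRPa replicate 2 or 3 (adjusted p up to 0.0989, edgeR). Foxo1 was at 69.9, 64.6 and 83.4 CPM in CD301b, 48.0, 45.2 and 60.7 in SIRPa and 18.0, 23.7 and 25.8 in XCR1 libraries, with log2 fold changes of 1.69 ± 0.18 and 1.19 ± 0.18 against XCR1 and adjusted p-values of 2.99e-07 and 2.68e-05 in edgeR's test. Foxo3, named here after its values were seen, was at 78.4 ± 0.878, 80.8 ± 19.4 and 48.6 ± 8.48 CPM. Rel and Nfkb1, subunits of NF-kappaB, were at 235 ± 42.6, 248 ± 30.1 and 140.5 ± 6.96 CPM and at 321 ± 17.4, 319 ± 5.76 and 218 ± 19.8 CPM, and Stat5b at 127 ± 7.37, 106 ± 6.17 and 72.9 ± 6.47 CPM. Dynll2, the light chain that tethers BMF, was lower, at 30.6 ± 4.80, 44.0 ± 2.98 and 68.3 ± 5.05 CPM.

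Receptors through which dendritic cells receive survival signals varied one by one. Flt3, the receptor for FLT3 ligand, was lowest in SIRPa, at 326 ± 21.0, 252 ± 4.04 and 519 ± 46.2 CPM in CD301b, SIRPa and XCR1. The log2 fold change of CD301b against XCR1 was -0.67 ± 0.10 and that of SIRPa against XCR1 was -1.04 ± 0.10; their adjusted p-values were 2.39e-05 and 6.07e-08 in edgeR's test. The smaller difference between CD301b and SIRPa, 0.37 ± 0.10 with an adjusted p of 0.0302, was lost without CD301b replicate 1 or 3 or any SIRPa library, at adjusted p-values up to 0.145. Tnfrsf11a, which encodes RANK, was at 59.2 ± 8.60, 94.6 ± 9.35 and 58.9 ± 13.6 CPM, called lower in CD301b than in SIRPa, except without CD301b replicate 3 or SIRPa replicate 1 (adjusted p up to 0.116, edgeR), and higher in SIRPa than in XCR1. Csf2rb2, a beta chain related to the GM-CSF receptor, was higher in SIRPa than in XCR1, at 200.1 ± 18.6 and 133 ± 17.4 CPM.

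**Figure D4:**
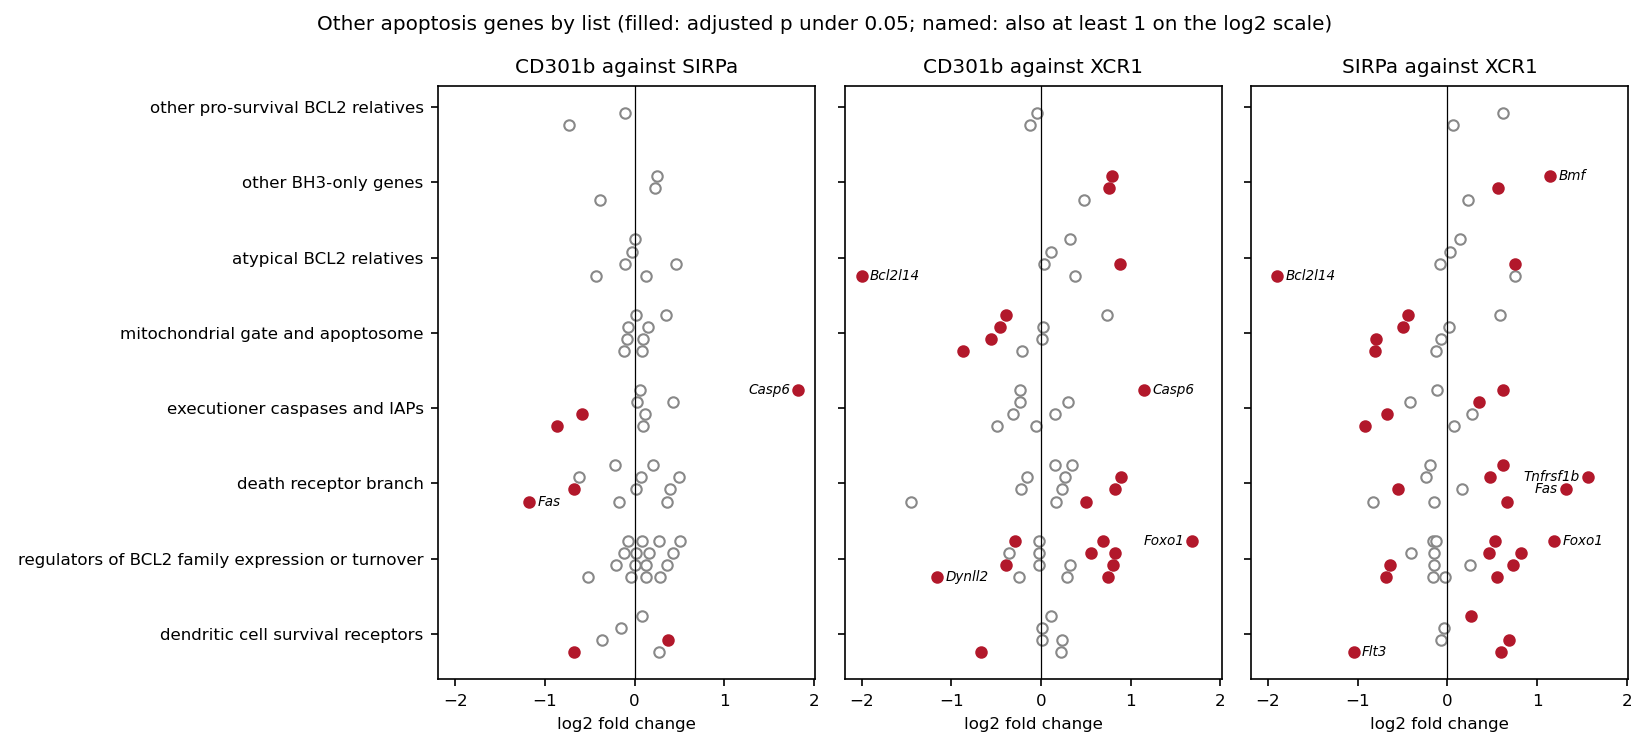
Log2 fold changes (horizontal axes) of the 60 other tested genes by list (rows) in CD301b against SIRPa, CD301b against XCR1 and SIRPa against XCR1, 1 point per gene with a vertical offset only to separate points. Filled red points have an adjusted p under 0.05 in edgeR's quasi-likelihood test and those of at least 1 in size are named; Casp6 stands alone on the right between CD301b and SIRPa, and Bcl2l14 on the far left in both comparisons with XCR1.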

How the data were processed

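RNA was sequenced from 9 libraries of sorted thymic dendritic cells, 3 per population. The submitters' processing notes name HISAT2, featureCounts of Subread, SAMtools, Trimmomatic, FastQC and edgeR and the genome build mm10 (GRCm38). Versions, annotation, strand setting and the handling of reads with several matches are not stated. The authors deposited raw read counts per gene symbol. Their deposited log2 CPM values, for 22066 genes, served only as a check: over the 10 members, the differences between populations in them lay within 0.151 of the fitted log2 fold changes.

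Of 55302 rows, 24 symbols had been turned into dates, held 0.125 to 0.187% of a library's counts and were left out. The filter was filterByExpr of edgeR (minimum count 10), library sizes were scaled by TMM, and all 9 libraries entered 1 fit with population as the only term (glmQLFit with robust estimation, glmQLFTest, two-sided), with Benjamini-Hochberg adjustment over 15417 genes per comparison and a threshold of 0.05. The script was tested on simulated data. Software was edgeR 4.0.16, DESeq2 1.42.0 and limma 3.58.1 under R 4.3.3. Intervals are the log2 fold change ± 1.96 SE, a normal approximation that is narrower than the test with few libraries. Bcl2a1d in SIRPa against XCR1, for example, had an interval of -0.52 to -0.01 beside an unadjusted p of 0.0533 in edgeR's test. Gene positions, exon lengths and coding sequences are from GENCODE M21, promoter windows from RefSeq (GRCm38.p6).

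The members and lists were chosen with earlier results of these data known. All members are named, with up to 3 called genes of smallest adjusted p per list and comparison, or the gene of highest mean CPM where none was called, and the 3 most similar genes for each member called in the test of all populations. Bnip3, Dynll1, Tcf7 and Trp53 were named after their values were seen. Alternatives were DESeq2, RLE scaling, no filter, limma-voom, only the 6 libraries compared, the replicate number as a block, Bcl2a1 copies summed, and each library left out. Of the listed genes, 1 is counted but its values are not reported here.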

Additional observations from a re-analysis of the deposited data

How the results depend on the processing

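The calls of Bcl2, Bcl2l11 and Bid against XCR1 were made under every alternative in both comparisons. The alternatives share libraries and are not independent, and summing the Bcl2a1 copies left the counts of these 3 genes unchanged. With 1 library left out at a time, the number of members called was 0 to 1 in CD301b against SIRPa, 3 in all fits of CD301b against XCR1, 3 to 4 in SIRPa against XCR1 and 3 to 4 in the test of all populations. The 1 call in CD301b against SIRPa was Bcl2a1b, without CD301b replicate 3. The number of other apoptosis genes called was 4 to 9, 17 to 22 and 26 to 31 in the 3 comparisons, against 7, 22 and 30 with all libraries; the 4 came without CD301b replicate 3 and without SIRPa replicate 1. DESeq2 called 9, 23 and 32 of them and no filter gave 8, 22 and 28.

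Same-numbered libraries of different populations had r of 0.003 to 0.041 over 15417 genes, all above 0. Differently numbered libraries had r of -0.067 to 0.048, on both sides of 0. As every r was small, the replicate numbers were not taken to pair the libraries. With the replicate number as a block, 0, 3 and 4 members and 9, 23 and 30 other apoptosis genes were called, and 3 members in the test of all populations. Of the calls made without the block, it lost those of Fas in CD301b against SIRPa (adjusted p = 0.204, edgeR) and of Cycs in CD301b against XCR1 (0.0847). Between CD301b and SIRPa it called Dynll1, Dynll2 and Stat5a of the regulators, where 0 were called without the block and with all libraries. Replicate number 4 occurs in CD301b alone, so the block fits that library with a term of its own. The library then adds nothing to the comparisons, and edgeR without CD301b replicate 4 called the same 3 regulators.

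Of the single members' log2 fold changes, 438 kept their sign and their side of the threshold, 6 were no longer called (Bcl2a1b in SIRPa against XCR1), 1 was newly called, and 29 changed sign, none of them called with all libraries or after the change. With the block the changed values were 0.0089 for Bcl2a1d in CD301b against XCR1, and 0.0065 for Bax, 0.17 for Bid and 0.086 for Bbc3 in CD301b against SIRPa. For Bbc3 in CD301b against XCR1 they were -0.014 with DESeq2 and with RLE scaling, -0.017 without a filter and -0.0034 in the 6 libraries compared. The other changes of sign came with 1 library left out. Over those fits, values in CD301b against SIRPa ran from -0.49 to 0.032 for Bax, -0.13 to 0.034 for Bak1, -0.17 to 0.16 for Bid and -0.29 to 0.016 for Bbc3. In CD301b against XCR1 they ran from -0.18 to 0.0094 for Bcl2l1, -0.17 to 0.30 for Bcl2a1b, -0.21 to 0.0084 for Bcl2a1d and -0.30 to 0.61 for Bbc3. In SIRPa against XCR1 they ran from -0.040 to 0.087 for Mcl1 and -0.19 to 0.72 for Bbc3. The cause was not tested. RLE scaling and DESeq2 moved the median of all genes by at most 0.019 in size (log2). Bbc3, at 3.33 to 10.4 CPM, had 69 to 209 counts in the XCR1 libraries.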
